A study of Mus musculus with 4 samples.

Results

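The genes described here are the metallothioneins Mt1 and Mt2, the zinc-sensing transcription factor Mtf1, the zinc exporter Slc30a1 and the zinc importer Slc39a14. They are 5 genes chosen by name, of 19491 genes listed in at least 1 library, and each was listed in all 4 libraries. The authors sorted CD45+ cells from the dura mater or the brain of adult C57BL/6J mice, 8 weeks old, at day 3 after photothrombotic injury (PTI; labelled INJ, here D3). Their controls, labelled CT, were taken as the sham-operated mice of the study (here S3). Photothrombotic injury closes vessels with a dye that light activates, and the comparison asks how leukocytes of the injured brain and of the dura mater above it differ from those of control mice. There is 1 library for each of the 4 conditions, and how many mice went into it is not given in the sources used here. Replicate error is therefore unknown, and differences are described without tests or P values.

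Metallothioneins are small, cysteine-rich cytosolic proteins that bind zinc and copper and buffer the free metal in a cell. When zinc rises, the zinc-finger protein MTF1 binds metal response elements in the promoters of Mt1, Mt2 and Slc30a1. SLC30A1 (ZnT1) carries zinc out of the cell through the plasma membrane, and SLC39A14 (ZIP14) carries zinc, and also iron and manganese, into it. Glucocorticoids and inflammatory cytokines also raise metallothionein transcripts in many tissues, and in the brain these proteins are best known from astrocytes.

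Mt1 (ENSMUSG00000031765) and Mt2 (ENSMUSG00000031762) lie next to each other on the plus strand of chromosome 8 of GRCm38 (GENCODE vM21), from 94179082 to 94180327 and from 94172664 to 94173568, with 5513 bases between them. Slc30a1 (ENSMUSG00000037434) lies on the plus strand of chromosome 1 from 191906767 to 191913247. Mtf1 (ENSMUSG00000028890) lies on the plus strand of chromosome 4 from 124802104 to 124849800, and Slc39a14 (ENSMUSG00000022094) on the minus strand of chromosome 14 from 70303469 to 70351425. The promoters of Mt1, Mt2 and Slc30a1 are shown because these are the members known as MTF1 targets, whose transcripts are set side by side below. Each run holds 250 bases before and 50 bases after the RefSeq gene start (GRCm38.p6, plus strand), and capitals mark the core of the metal response element, searched as TGCACNC and TGCGCNC on both strands. The windows are chr8:94178839-94179138 for Mt1, chr8:94172368-94172667 for Mt2 and chr1:191906531-191906830 for Slc30a1.
Mt1: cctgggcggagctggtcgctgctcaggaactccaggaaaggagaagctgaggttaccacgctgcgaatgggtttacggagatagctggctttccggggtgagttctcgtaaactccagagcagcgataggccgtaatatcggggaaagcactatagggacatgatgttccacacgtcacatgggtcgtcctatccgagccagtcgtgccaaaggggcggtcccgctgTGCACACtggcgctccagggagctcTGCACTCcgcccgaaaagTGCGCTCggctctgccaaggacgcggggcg
Mt2: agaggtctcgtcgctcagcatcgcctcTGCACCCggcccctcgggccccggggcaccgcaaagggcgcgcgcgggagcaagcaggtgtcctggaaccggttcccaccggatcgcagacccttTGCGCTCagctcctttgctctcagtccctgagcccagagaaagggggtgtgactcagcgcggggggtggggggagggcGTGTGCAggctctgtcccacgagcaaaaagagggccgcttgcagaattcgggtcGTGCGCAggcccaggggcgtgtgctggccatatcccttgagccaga
Slc30a1: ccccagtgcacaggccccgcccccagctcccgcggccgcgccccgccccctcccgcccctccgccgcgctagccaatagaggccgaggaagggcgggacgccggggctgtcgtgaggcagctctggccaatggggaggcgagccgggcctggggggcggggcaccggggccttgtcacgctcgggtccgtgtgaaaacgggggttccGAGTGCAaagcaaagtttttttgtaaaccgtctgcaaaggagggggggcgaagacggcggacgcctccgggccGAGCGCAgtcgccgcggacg

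The Mt1 window held 3 cores, the Mt2 window 4 and the Slc30a1 window 2, while the Mtf1 window held 0. Of 32851 promoters of the same length, 25.7% held at least 1 core, 7.11% at least 2, 1.97% at least 3 and 0.517% at least 4. Of the 3 protein-coding Mt1 transcripts of GENCODE, 2 begin after the end of this window, and so does 1 of the 2 transcripts of Mt2 and 1 of the 2 of Slc30a1. A match describes the letters and was not tested as a binding site.

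The authors deposited natural-log values, and undoing the log and the scaling gave whole UMIs (unique molecular identifiers, 1 for each captured molecule) for every entry, within 1e-06. Filtering by gene number, mitochondrial share and doublet score left 14098 cells, 3618 of brain S3, 4438 of brain D3, 3439 of dura mater S3 and 2603 of dura mater D3, with median depths of 8252, 14269.5, 9320 and 14156 UMIs. The library medians were higher at D3 in both tissues, while in the brain the medians of several classes were lower at D3, such as 10551.5 and 8176 UMIs in Lyve1+ macrophages and 17597 and 14699 in cDC2. The brain libraries are titled CD45pos while their source name reads CD45-+, and Ptprc, the gene of CD45, had a UMI in 91.9% to 95.5% of the kept cells of each library. The libraries shared 37 of 18969 barcodes. Each cell was placed in a class by its own marker genes, which could be done for 93.8% of cells, with 5.19% of kept cells near a cut, so a class is a range of marker scores. A level is the number of a gene's UMIs per 1000000 UMIs of its class and library (CPM). The range after a level is its exact Poisson 95% interval, that after a share of cells its Clopper-Pearson 95% interval, and that after a log2 ratio the exact interval from the Poisson counts of both groups. These intervals cover counting error only, and a ratio is called beyond counting error where its interval leaves out 0. The UMIs come from the 3′ end and are not per transcript length, so each gene was compared with itself across classes and libraries.

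By CPM, Mt1 was highest in macrophages and in type 2 conventional dendritic cells (cDC2). The Lyve1+ macrophages of the dura mater, resident macrophages known from the surroundings of vessels, led the order. Mt1 in these cells was at 1589 CPM (1551 to 1626) at S3 and 1469.9 CPM (1444 to 1496) at D3, and in Lyve1+ macrophages of the brain at 771 CPM (728 to 817) and 669.7 CPM (632 to 709). Both dural values were above both brain values. In cDC2, which present antigen to CD4 T cells, Mt1 was at 888 CPM (850.0 to 927) in brain S3, 749 CPM (713 to 787) in brain D3, 1171 CPM (1133 to 1209) in dura mater S3 and 1022 CPM (979.9 to 1066) in dura mater D3. Lyve1- macrophages, which carry MHC class II, were at 572 CPM in brain S3, 589 in brain D3, 541 in dura mater S3 and 664 in dura mater D3. The infiltrating macrophages of brain D3, gated on Arg1, Gpnmb, Spp1, Fabp5 and Fn1, were at 671 CPM (661 to 681). Microglia, the resident macrophages of the brain tissue, were at 496 CPM (476 to 517) at S3 and 486 CPM (471 to 502) at D3. The intervals of infiltrating macrophages, of brain Lyve1+ macrophages of D3 and of dural Lyve1- macrophages of D3 overlapped, as did those of microglia at S3 and D3.

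Below them came the other classes. Type 1 dendritic cells (cDC1), which cross-present antigen, were at 171, 209.7, 360.4 and 468 CPM in brain S3, brain D3, dura mater S3 and dura mater D3, in classes of 25 to 52 cells a library. Mast cells, found in the dura mater, were at 274 CPM at S3 and 362 CPM at D3. Natural killer cells and type 1 innate lymphoid cells lay between 22.1 and 33.8 CPM and B cells between 23.1 and 35.99 CPM over the 4 libraries, so these classes lay near the end of the order. Over the 51 pairs of class and library with at least 50 cells, Mt1 ran from 10.4 CPM in type 2 innate lymphoid cells of brain S3, from 4 UMIs, to 1589 CPM, a 152-fold span.

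Free RNA in a droplet can give a UMI to a cell that does not express the gene. It was not measured here, and B cells, a class with low Mt1, are set beside the other classes instead. Whether the Mt1 UMIs of B cells come from free RNA was not tested. A Mt1 UMI was found in 5.47% (3.63 to 7.85) of B cells in brain S3 (median depth 4728 UMIs), 10.96% (4.85 to 20.5) in brain D3 (3474 UMIs), 7.48% (5.53 to 9.85) in dura mater S3 (5416 UMIs) and 11.9% (7.22 to 18.2) in dura mater D3 (5155 UMIs). It was found in 99.4% (98.7 to 99.8) of infiltrating macrophages (23542.5 UMIs), in 79.02% (74.8 to 82.9) and 79.5% (75.9 to 82.9) of microglia (9584 and 8959 UMIs) and in 95.2% (92.2 to 97.2) and 97.7% (96.04 to 98.8) of dural Lyve1+ macrophages (12384.5 and 15836 UMIs) at S3 and D3. With each cell thinned to 2000 UMIs, the share was 61.8% in infiltrating macrophages, 42.7% and 46.2% in microglia, 78.05% and 78.9% in dural Lyve1+ macrophages and 1.42% to 8.22% in B cells. Macrophages thus stood above B cells at equal depth. The median cell held 9.46 and 9.92 Mt1 UMIs for each 10000 of its own in dural Lyve1+ macrophages, 4.87 in infiltrating macrophages and 2.09 and 2.58 in microglia. In cDC2 the median was 1.89 and 2.38 in the brain at S3 and D3 and 4.88 and 5.84 in the dura mater. In Lyve1- macrophages it was 2.74 and 3.003 in the brain and 3.09 and 4.15 in the dura mater. By the median cell, brain cDC2 thus lay below brain Lyve1- macrophages, while by CPM they lay above.

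**Figure D1:**
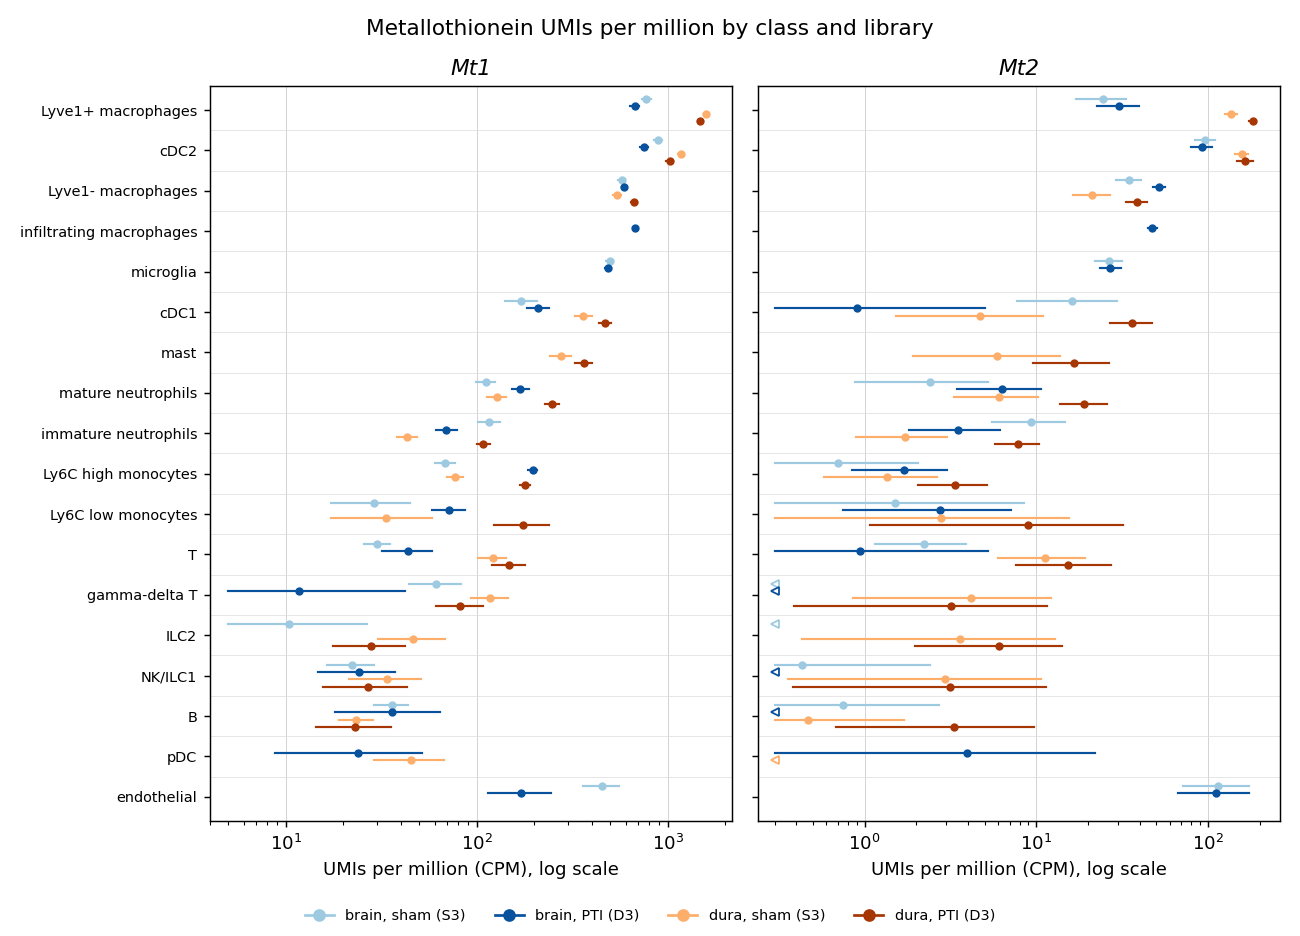
Mt1 (left) and Mt2 (right) in UMIs per 1000000 UMIs on a log axis, by class, with 1 point per library of at least 20 cells and exact Poisson 95% intervals cut at the left edge of the axis; open triangles at that edge are classes with 0 UMIs. Dural Lyve1+ macrophages reach 1589 CPM of Mt1 and 182 CPM of Mt2, and B and NK/ILC1 cells lie near the low end of both panels.

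Mt2 had its highest levels in the same classes as Mt1, on fewer UMIs. In Lyve1+ macrophages Mt2 was at 136 CPM (125 to 147) in dura mater S3, 182 CPM (173 to 191) in dura mater D3, 24.3 CPM (17.1 to 33.5) in brain S3 and 30.2 CPM (22.6 to 39.5) in brain D3. In cDC2 it was at 95.9 CPM in brain S3, 92.1 in brain D3, 157 in dura mater S3 and 164 in dura mater D3. The intervals of dural cDC2 (144 to 172 and 147 to 182 CPM) overlapped those of the dural Lyve1+ macrophages of the same library. Infiltrating macrophages were at 47.5 CPM (44.8 to 50.3), microglia at 26.4 and 27.02 CPM at S3 and D3, and Lyve1- macrophages at 34.5, 51.7, 21.1 and 38.5 CPM in brain S3, brain D3, dura mater S3 and dura mater D3. Ly6C high monocytes held only 3, 11, 8 and 20 Mt2 UMIs in the same order of libraries. These lay in 1.15% to 3.99% of the monocytes, beside 0% to 1.99% of B cells. The 0 of 73 B cells of brain D3 allows a share of up to 4.11%, taken as 3 cells of the 73.

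The number of Mt1 UMIs for each Mt2 UMI was not the same in every class. Over the 18 pairs of class and library with at least 30 Mt2 UMIs it had a median of 13.4 and ran from 6.24 in cDC2 of dura mater D3 to 31.7 in Lyve1+ macrophages of brain S3. It was 11.7 at S3 and 8.07 at D3 in dural Lyve1+ macrophages, 14.1 in infiltrating macrophages, and 18.8 in microglia of S3, with 3708 Mt1 and 206 Mt2 UMIs in those of D3. In single cells, a Mt2 UMI was found in 50.9% of the 513 dural Lyve1+ macrophages of D3 with a Mt1 UMI and in 0% of the 12 without one. In infiltrating macrophages the shares were 35.2% of 1014 cells and 0% of 6. Few cells lacked Mt1, and deeper cells show more of both genes. The coding sequences of Mt1 and Mt2 are alike, so reads that match both could have been split or dropped when the authors counted them.

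Over all brain leukocytes Mt1 was higher after injury, while within microglia it differed little between the gated cells of S3 and D3. Over all kept cells Mt1 was at 266 CPM (261 to 271) in brain S3 and 506 CPM (501 to 511) in brain D3, a log2 ratio of 0.93 (0.897 to 0.96). In the dura mater it was at 370.3 CPM (364 to 376) at S3 and 571 CPM (563 to 578) at D3, a log2 ratio of 0.62 (0.59 to 0.65). Within microglia the log2 ratio of D3 over S3 was -0.028 (-0.104 to 0.047) for Mt1 and 0.033 (-0.296 to 0.37) for Mt2. With classes taken from clusters of cells, which put 636 rather than 537 cells of D3 among microglia, it was 0.56 (0.499 to 0.62) for Mt1 and 1.27 (1.06 to 1.49) for Mt2, so the microglial ratio depended on which cells were counted. In gated microglia of S3, 1 cell held 48 of the 123 Mt2 UMIs. The 5% of these microglia richest in Mt2 held 86.2% of the UMIs, so the interval of the gated Mt2 ratio is too narrow. A Mt2 UMI was found in 9.27% of gated microglia at S3 and 14.7% at D3, with overlapping intervals. Of the gated microglia, a cluster led by C1qa and C1qb held 11.2% at S3 and 33.5% at D3. Of the 5 genes, 1, Slc39a14, was past 2-fold higher in microglia and 0 were past 2-fold lower, where 6.08% and 5.3% of 12068 genes were. The 12 genes of dissociation stress, such as Fos and Jun, summed to 28468 CPM in microglia of S3 and 16061 CPM in those of D3, and the 10 glucocorticoid response genes to 1996 and 1517 CPM. Their part in the microglial values was not tested.

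The classes that held the Mt1 of the brain differed between S3 and D3. Infiltrating macrophages were 1 cell of brain S3 and 1020 cells of brain D3, where they held 46.1% of all Mt1 UMIs and 34.8% of the UMIs of all genes. In brain S3 the Mt1 UMIs lay with Lyve1- macrophages (23.2%), microglia (23.1%), cDC2 (20.7%) and Lyve1+ macrophages (11.7%). In the dura mater, Lyve1+ macrophages held 44.8% of Mt1 UMIs at S3 and 53.7% at D3, and 10.4% and 20.9% of the UMIs of all genes. Such shares move with the number of sorted cells of a class and with the RNA of each cell.

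**Figure D2:**
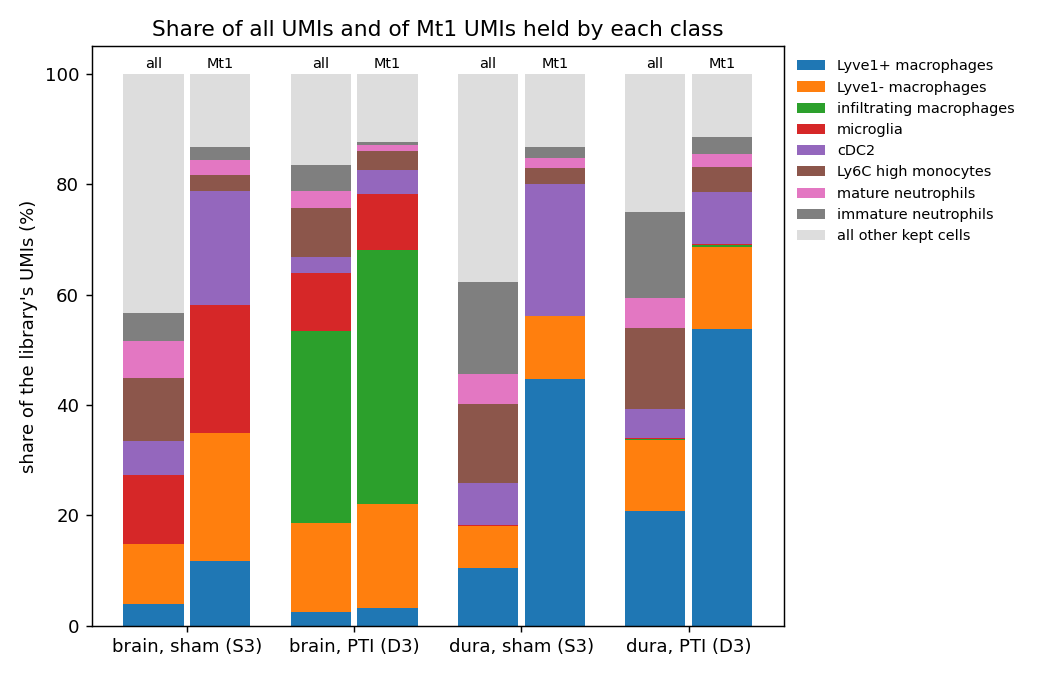
Share (%) of each library's UMIs held by each class, as stacked bars, for all genes and for Mt1. Infiltrating macrophages hold 46.1% of the Mt1 UMIs of the injured brain, and Lyve1+ macrophages hold 44.8% and 53.7% of those of the dura mater at S3 and D3.

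Infiltrating macrophages had a Mt1 level close to that of the macrophages of the control brain, and more Mt2 and Slc39a14. Mt1 was at 671 CPM (661 to 681), beside 627 CPM (606 to 648) in the Lyve1+ and Lyve1- macrophages of brain S3 together, a log2 ratio of 0.099 (0.047 to 0.15). Mt2 was at 47.5 CPM beside 31.8 CPM (27.2 to 36.8), a log2 ratio of 0.58 (0.35 to 0.82), and Slc39a14 at 13.6 CPM (12.2 to 15.1) beside 5.74 CPM (3.93 to 8.104), a log2 ratio of 1.24 (0.72 to 1.81). The intervals of Mtf1, 0.019 (-0.29 to 0.34), and of Slc30a1, -0.052 (-0.46 to 0.38), held 0. Slc39a14 was the 1 gene of 5 past 2-fold higher and 0 were past 2-fold lower, where 7.42% and 24.1% of 12608 genes were. The median log2 ratio was 0.099 over the 5 genes and -0.28 over all genes compared. The dissociation stress genes summed to 21707 CPM in the control macrophages and 9482 CPM in the infiltrating macrophages, and their part was not tested.

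Infiltrating macrophages had more of both metallothioneins than Ly6C high monocytes of the same library, the blood cells from which inflammatory macrophages are known to arise. Mt1 was at 671 beside 196 CPM (186 to 207), a log2 ratio of 1.77 (1.69 to 1.86), and Mt2 at 47.5 beside 1.698 CPM (0.848 to 3.04), a log2 ratio of 4.81 (3.96 to 5.81). These were 2 of the 5 genes past 2-fold higher, where 13.5% of 12270 genes were, and 0 were past 2-fold lower, where 12.9% were. The other members had intervals that held 0, with -0.032 (-0.37 to 0.32) for Slc39a14, 0.076 (-0.22 to 0.38) for Mtf1 and -0.200 (-0.57 to 0.19) for Slc30a1. Against microglia of brain D3, Mt1 gave 0.47 (0.41 to 0.52) and Slc39a14 -0.76 (-1.02 to -0.48), which lie on opposite sides of 0.

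Ly6C high monocytes had more Mt1 after injury in both tissues. Mt1 was at 68.2 CPM (60.6 to 76.5) in brain S3 and 196 CPM (186 to 207) in brain D3, and at 76.9 CPM (70.00 to 84.3) in dura mater S3 and 178 CPM (168 to 189) in dura mater D3. Both D3 values were above both S3 values, with log2 ratios of 1.52 (1.34 to 1.71) in the brain and 1.21 (1.06 to 1.38) in the dura mater. A Mt1 UMI was found in 34.6% (28.8 to 40.7), 71.3% (66.6 to 75.7), 37.8% (32.6 to 43.1) and 72.8% (67.4 to 77.7) of cells in the same order, and in 10.4%, 24.2%, 10.7% and 26.2% with each cell thinned to 2000 UMIs. Past 2-fold higher were 3 of the 5 genes in the brain, Mt1, Mt2 and Slc39a14, where 5.8% of 10978 genes were, and the same 3 in the dura mater, where 3.11% of 11138 genes were. Past 2-fold lower were 0 in the brain and 0 in the dura mater, where 6.38% and 4.04% of genes were. Of these, Mt2 rested on few UMIs, with 1.28 (-0.64 to 3.76) in the brain and 1.32 (0.073 to 2.71) in the dura mater. Mtf1 was at 24.99 and 17.8 CPM in brain S3 and D3, a log2 ratio of -0.49 (-0.89 to -0.099), which was 0.22 (-0.97 to 1.501) with cells thinned to 2000 UMIs. Slc30a1 was at 18.9 and 11.7 CPM, a log2 ratio of -0.69 (-1.16 to -0.22), and in the dura mater the intervals of both genes held 0. With cells thinned to 2000 UMIs, a Slc30a1 UMI was found in 3.08% (1.34 to 5.97) of these monocytes in brain S3. In brain D3 the thinned share was 2.99% (1.56 to 5.17), with overlapping intervals. The monocytes of the brain were spread over clusters differently at S3 and D3, since a cluster led by Il1b and Ifitm3 held 2.69% of them at S3 and 30.9% at D3, beside 6.05% and 9.63% in the dura mater, and with classes from clusters the brain ratio of Mt1 was 1.06 (0.83 to 1.29). The dissociation stress genes summed to 15009 and 8296 CPM in brain S3 and D3 and to 9392 and 6955 CPM in the dura mater, and their part was not tested.

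Ly6C low monocytes, which patrol vessels, had a higher Mt1 level at D3, carried by few cells. Mt1 was at 28.7 CPM (17.3 to 44.9) in brain S3, 71.3 CPM (58.2 to 86.4) in brain D3, 33.4 CPM (17.2 to 58.3) in dura mater S3 and 174 CPM (124 to 238) in dura mater D3, from 19, 103, 12 and 39 UMIs. The log2 ratios were 1.31 (0.59 to 2.099) and 2.38 (1.42 to 3.45). The 5% of cells richest in Mt1 held 68.4%, 66.99%, 50% and 56.4% of these UMIs. A Mt1 UMI was found in 13.5% (6.68 to 23.5) and 20.9% (15.4 to 27.3) of cells in the brain and 20% (9.05 to 35.6) and 28.6% (13.2 to 48.7) in the dura mater, and in each tissue these intervals overlapped.

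Mature neutrophils, phagocytes that arrive early at an injury, had Mt1 at 111 CPM (98.5 to 125) in brain S3, 169 CPM (152 to 187) in brain D3, 127 CPM (113 to 142) in dura mater S3 and 248 CPM (228 to 270.1) in dura mater D3. The log2 ratio of D3 over S3 was 0.603 (0.38 to 0.83) in the brain and 0.97 (0.76 to 1.18) in the dura mater. The mature neutrophils of the injured brain lay partly in a cluster led by the inflammatory genes Cxcl2 and Il1b, which held 38.3% of them beside 0.266% of those of brain S3. Few cells held most of these molecules, since the 5% of cells richest in Mt1 held 79.9%, 66.2%, 74.3% and 73.7% of them, so that the UMIs are not independent and the intervals are too narrow. Another cluster named mature neutrophils, of 250 cells, had Apoe and C1qa, which also lead macrophage clusters, among its leading genes. It held 59 cells of brain S3, 50 of brain D3, 58 of dura mater S3 and 83 of dura mater D3. Of its cells 44% were gated as mature neutrophils, and their part in the Mt1 values was not tested. The brain ratio was 0.084 (-0.068 to 0.23) without the filter on cells, 0.22 (0.039 to 0.402) with classes from clusters and 1.28 with each cell weighted equally. Past 2-fold higher in the brain were 3 of the 5 genes, Mt2, Slc30a1 and Slc39a14, where 9.09% of 9736 genes were, and 0 were past 2-fold lower, where 6.54% of genes were. Mt2, with 6 UMIs at S3 and 14 at D3, and Slc30a1, with 6 and 12, had intervals that held 0 (-0.068 to 3.07 and -0.35 to 2.88), and without the filter on cells the ratio of Mt2 was -1.31. The dissociation stress genes summed to 14178 CPM in brain S3 and 8923 CPM in brain D3, and their part was not tested.

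In dural Lyve1+ macrophages the 5 genes differed by less than 2-fold between S3 and D3. Of all genes compared, 3.29% were past 2-fold higher and 3.82% lower, of 12372. Mt1 was at 1589 CPM at S3 and 1469.9 CPM at D3, a log2 ratio of -0.11 (-0.15 to -0.069), and Mt2 at 136 and 182 CPM, a log2 ratio of 0.43 (0.29 to 0.57). The 2 metallothioneins thus lay on opposite sides of 0, and with classes from clusters Mt1 gave -0.028 (-0.074 to 0.018) and Mt2 0.58 (0.42 to 0.73). By the median cell Mt1 did not fall, at 9.46 UMIs for each 10000 at S3 and 9.92 at D3. The upper quartile was lower at D3, at 18.8 beside 23.6, so the Mt1 ratio by CPM reflects the cells richest in Mt1. Mtf1, -0.25 (-0.61 to 0.11), Slc30a1, -0.14 (-0.55 to 0.28), and Slc39a14, 0.33 (-0.33 to 1.04), had intervals that held 0. Among the Lyve1- cells of the dura mater the ratios were 0.29 (0.21 to 0.38) for Mt1, 0.87 (0.46 to 1.29) for Mt2 and 0.94 (0.26 to 1.67) for Slc39a14. With cells thinned to 2000 UMIs the last 2 turned to the other side of 0, with -0.084 (-1.45 to 1.34) for Mt2 and -1.82 (-5.21 to 0.79) for Slc39a14. The fibroblast markers, genes of another cell type of the dura mater, summed to 53.98 CPM in dural Lyve1+ macrophages of S3 and 28.4 CPM in those of D3, with 0 of 4 markers at 0 in either, and their part was not tested.

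**Figure D3:**
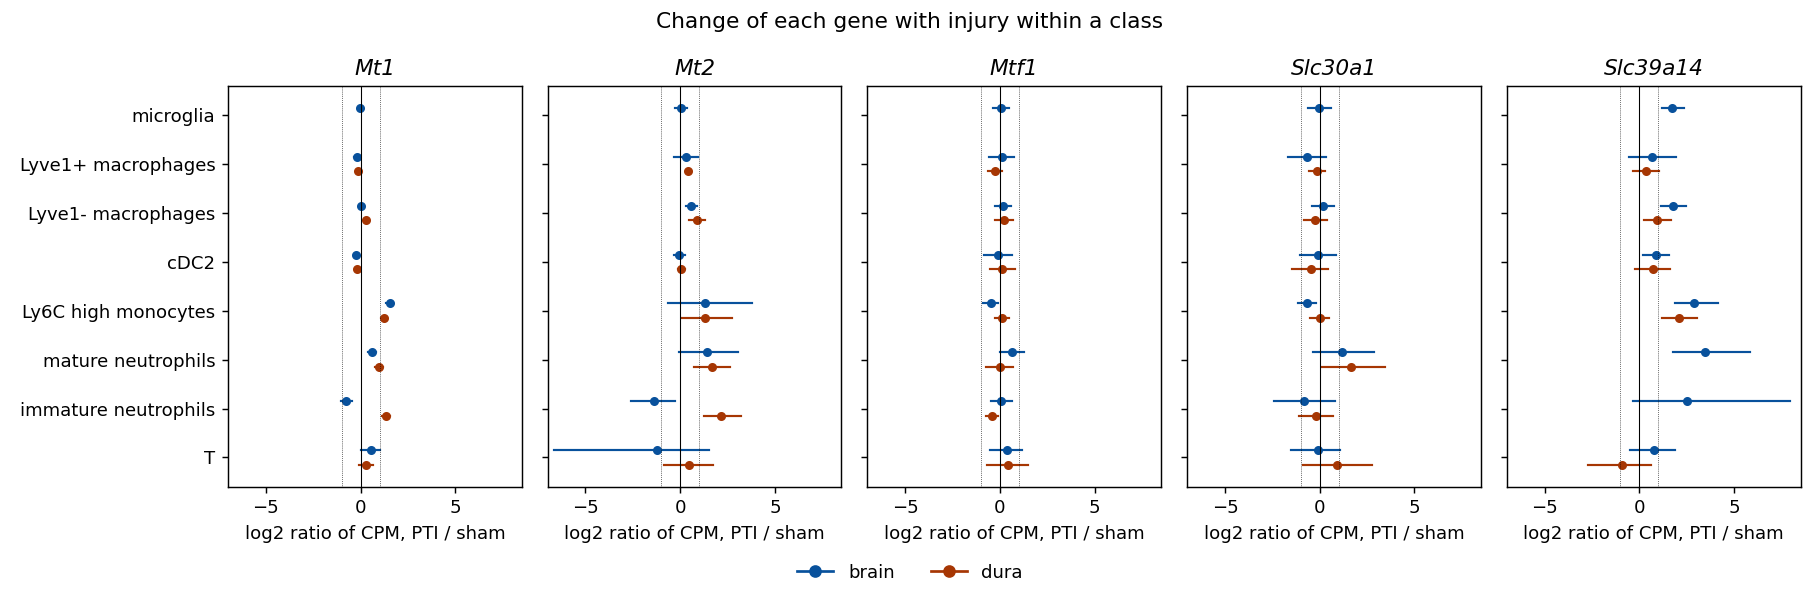
Log2 ratio of CPM, PTI (D3) over sham (S3), within a class, with 1 panel per gene, for brain and dura mater, and the exact 95% interval of counting error; dotted lines mark a 2-fold difference, and ratios from fewer than 10 UMIs are left out. Mt1 lies at 1.52 and 1.21 in Ly6C high monocytes of brain and dura mater and at -0.028 in microglia, and Slc39a14 lies at 1.74 in microglia and 2.89 in Ly6C high monocytes of the brain.

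The metallothioneins of Lyve1+ macrophages were lower in the brain than in the dura mater of control mice. Mt1 was at 771 CPM in the brain and 1589 CPM in the dura mater, a log2 ratio of -1.04 (-1.13 to -0.95), and Mt2 at 24.3 and 136 CPM, a log2 ratio of -2.48 (-2.999 to -1.999). These were 2 of the 5 genes past 2-fold lower, where 6.81% of 11302 genes were, and 0 were past 2-fold higher, where 5.26% were. The Lyve1+ cells of the tissues lay mostly in different clusters, 1 led by Apoe, C1qa and Pf4 with Ccl8 among its first 10 genes, which held 3.23% of them in the brain and 75.8% in the dura mater, and 1 led by the same genes with Jun, which held 66.9% and 4.55%. With classes from clusters the ratio of Mt1, -0.84, fell short of 2-fold. The intervals of Mtf1, -0.055 (-0.64 to 0.502), Slc30a1, -0.33 (-1.08 to 0.37), and Slc39a14, 0.083 (-1.13 to 1.18), held 0. In injured mice, brain over dura mater gave -1.13 (-1.22 to -1.05) for Mt1 and -2.59 (-3.02 to -2.198) for Mt2. In Lyve1- macrophages of control mice the ratios were 0.081 (-0.0091 to 0.17) for Mt1 and 0.71 (0.28 to 1.15) for Mt2. Of the 140 Mt2 UMIs of Lyve1- macrophages of brain S3, 1 cell held 52. The 5% of these cells richest in Mt2 held 90.7% of the UMIs, so the interval of this Mt2 ratio is too narrow. A smaller share of Lyve1- macrophages held a Mt2 UMI in brain S3 than in dura mater S3, with overlapping intervals. In cDC2 of control mice the ratios were -0.399 (-0.48 to -0.32) for Mt1 and -0.71 (-0.95 to -0.48) for Mt2. Astrocyte markers summed to 37.5 CPM in brain and 13.3 CPM in dural Lyve1+ macrophages at S3, with 0 and 1 of 5 markers at 0, and the dissociation stress genes to 25207 and 20685 CPM, and their part was not tested.

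T cells had less Mt1 in the brain than in the dura mater. Mt1 was at 30.04 CPM (25.6 to 35.04) in brain S3, 43.4 CPM (31.8 to 57.9) in brain D3, 121 CPM (102 to 142) in dura mater S3 and 147 CPM (120.2 to 178) in dura mater D3. Both dural values were above both brain values, and brain over dura mater at S3 gave a log2 ratio of -2.01 (-2.34 to -1.67). The T cells of S3 differed in make-up between the tissues, since a cluster with Lef1, Satb1 and Klf2, genes of naive T cells, held 49.6% of them in the brain and 14.3% in the dura mater, and a cluster with Ccl5 and Nkg7, genes of effector T cells, held 40.7% and 63.9%. The part of this in the values was not tested. Past 2-fold lower were 3 of the 5 genes, Mt1, Mt2 and Slc39a14, where 10.3% of 10889 genes were, and 0 were past 2-fold higher, where 4.72% were. In T cells of D3 Slc39a14 was at 8.496 CPM in the brain and 6.93 CPM in the dura mater, a log2 ratio of 0.29 (-1.44 to 2.22), while Mt1 gave -1.76 (-2.29 to -1.25). B cells of S3 gave 0.62 (0.19 to 1.04) for Mt1, on the other side of 0. A smaller share of these B cells held a Mt1 UMI in the brain than in the dura mater, with overlapping intervals. In brain S3, 1 B cell reached 41.9 Mt1 UMIs for each 10000 of its own. The share of T cells with a Mt1 UMI was 8.11% and 26.9% at S3, and 2.34% and 10.1% with each cell thinned to 2000 UMIs.

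Mtf1, which drives metallothionein transcription when zinc rises, was even across the classes. Over the 51 pairs of class and library it ran from 10.9 CPM in type 2 innate lymphoid cells of dura mater D3 to 30.4 CPM in immature neutrophils of dura mater S3, a 2.79-fold span with a median of 18.2 CPM. In microglia Mtf1 was at 17.2 CPM at S3 and 17.7 CPM at D3, in dural Lyve1+ macrophages at 24.6 and 20.6 CPM and in infiltrating macrophages at 18.7 CPM. Granulocyte precursors of dura mater S3, a class of 34 cells, were at 54.6 CPM (40.99 to 71.2). After injury the interval held 0 in 11 of 13 brain classes with at least 10 UMIs and in 13 of 14 dural classes. Across the 51 pairs, which share libraries and their depth, Pearson's r of log2(CPM + 1) between Mtf1 and Mt1 was 0.204.

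Slc30a1, the exporter, was low in leukocytes. In macrophages and monocytes of at least 50 cells it lay between 7.61 CPM in Ly6C low monocytes of brain D3 and 18.9 CPM in Ly6C high monocytes of brain S3. Dural Lyve1+ macrophages were at 18.1 CPM (14.4 to 22.6) at S3 and 16.5 CPM (13.8 to 19.4) at D3, and microglia at 8.16 and 8.000 CPM, with a log2 ratio of -0.028 (-0.64 to 0.596). B cells had a Slc30a1 UMI in 0% to 3.97% of cells and mature neutrophils in 1.27% to 5.29%, so in neutrophils the share was near that of B cells. How much of either is free RNA was not tested. After injury the interval held 0 in 10 of 11 brain classes and 7 of 9 dural classes.

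Slc39a14, the importer, was beyond counting error in more brain classes in 1 direction than any other member. In microglia it was at 6.87 CPM (4.697 to 9.69) at S3 and 22.95 CPM (19.7 to 26.6) at D3, a log2 ratio of 1.74 (1.19 to 2.33), with a UMI in 6.83% (4.59 to 9.72) and 17.9% (14.7 to 21.4) of cells. In Lyve1- macrophages of the brain it was at 5.43 CPM (3.402 to 8.22) and 18.4 CPM (16.01 to 21.02), a log2 ratio of 1.76 (1.12 to 2.46), where 5.14% of 12026 genes were past 2-fold higher and 10.3% lower. In both classes the interval of D3 lay wholly above that of S3. The Lyve1- cells of the brain differed in make-up, since a cluster led by Cd74 and H2-Eb1 held 76.3% of them at S3 and 33.4% at D3, while the cluster of infiltrating macrophages held 30.4% and the cluster led by Il1b and Ifitm3 14.1% at D3. In Ly6C high monocytes it was at 1.87 CPM (0.807 to 3.68) in brain S3, 13.9 CPM (11.2 to 17.1) in brain D3, 2.35 CPM (1.28 to 3.94) in dura mater S3 and 9.88 CPM (7.52 to 12.7) in dura mater D3, with log2 ratios of 2.89 (1.85 to 4.15) and 2.07 (1.21 to 3.03). Both D3 values were above both S3 values, and at S3 the share of these monocytes with a UMI, 2.69% and 3.75%, was near the 0.607% to 2.65% of B cells. With classes from clusters, which kept 199 of the monocytes of brain D3, the brain ratio was 0.94 (-0.29 to 2.24). Mature neutrophils held 3 Slc39a14 UMIs in brain S3 and 29 in brain D3, in 0.532% (0.0645 to 1.91) and 4.56% (2.57 to 7.41) of cells, a log2 ratio of 3.45 (1.76 to 5.81). In cDC2 of the brain the ratio was 0.86 (0.17 to 1.58), while in Lyve1+ macrophages, 0.64 (-0.55 to 1.92), and T cells, 0.76 (-0.51 to 1.89), the interval held 0. Of the 10 brain classes with at least 10 UMIs, 5 lay above counting error and 0 below, and of 9 dural classes 2 lay above. For Mt1, 4 of 13 brain classes lay above and 4 below. The share of all genes beyond counting error was not computed. The difference between the tissues was not tested.

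Plasmacytoid dendritic cells, which make type I interferon, had the highest Slc39a14 levels, at 35.7 CPM (16.3 to 67.8) in brain D3 and 33.8 CPM (20.04 to 53.4) in dura mater S3, from 22 and 36 cells. Their intervals overlapped those of microglia and of cDC2 of brain D3, the latter at 22.7 CPM (16.7 to 30.1). Immature neutrophils of dura mater D3 were lowest among pairs of at least 50 cells, at 0.477 CPM from 3 UMIs.

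**Figure D4:**
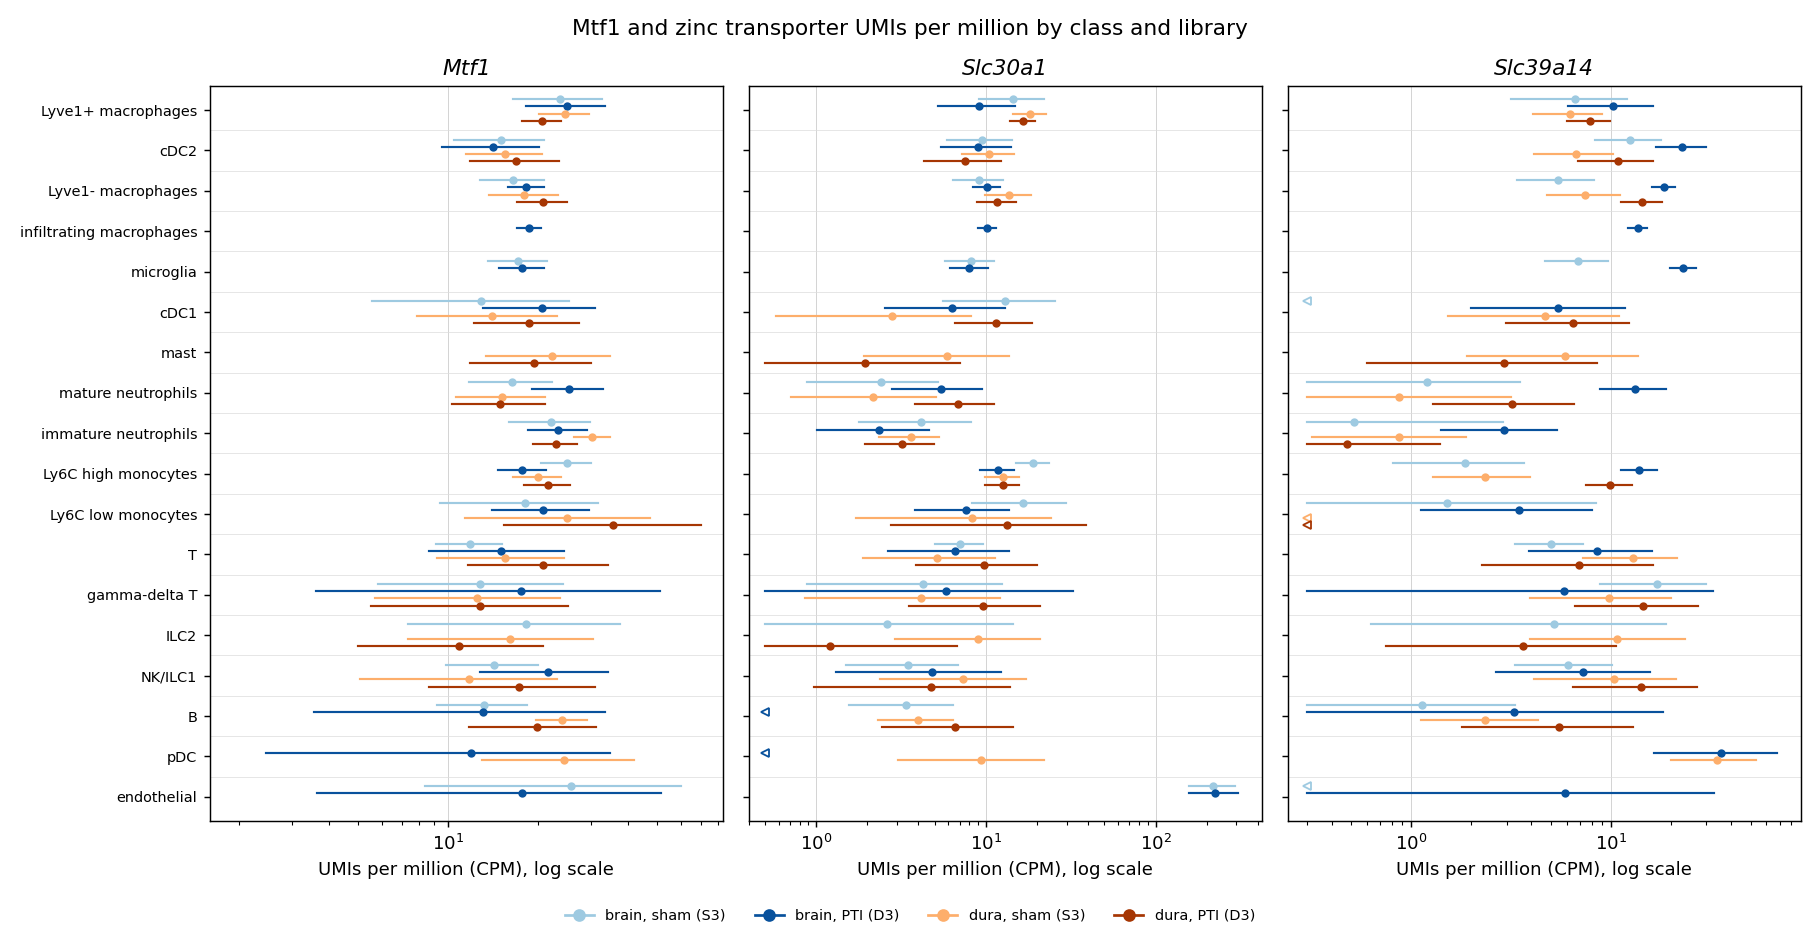
Mtf1, Slc30a1 and Slc39a14 in UMIs per 1000000 UMIs on log axes, by class, with 1 point per library of at least 20 cells and exact Poisson 95% intervals cut at the left edge; open triangles are classes with 0 UMIs. Mtf1 lies between 10.9 and 30.4 CPM in classes of at least 50 cells, Slc30a1 stands at 217 and 223 CPM in endothelial cells of the brain, and Slc39a14 is at 22.95 CPM in microglia of the injured brain.

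The genes whose levels were most like those of a member were ranked by Pearson's r of log2(CPM + 1) over the same 51 pairs, among 9462 genes. For Mt1 they were Sh3pxd2b (0.94), Spire1 (0.91), Mt2 (0.896), Ccnd1 (0.896) and Cmtm3 (0.88). For Mt2 they were Mt1 (0.896), Mgl2 (0.84), Sh3pxd2b (0.81), Egr2 (0.81) and Spire1 (0.801), of which Mgl2 is a marker used to gate cDC2. Mtf1 had lower values, led by Aldh2 (0.65), Spsb2 (0.63), Mospd2 (0.63), Zbtb34 (0.63) and Dstn (0.62). Nearest to Slc30a1 were Gltp (0.79), Npc2 (0.76), Tep1 (0.76), the zinc transporter Slc30a7 (0.76) and Dpy19l1 (0.75). Nearest to Slc39a14 were Creld2 (0.79), Calr (0.78), Manf (0.78), Thyn1 (0.77) and Fam162a (0.76), of which the first 3 encode proteins of the endoplasmic reticulum.

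Of 24 other zinc genes, the remaining metallothioneins and the SLC30 and SLC39 transporters, 22 were listed in at least 1 library. In microglia 18 of them had at least 10 UMIs, of which 0 were past 2-fold higher at D3 and 2 lower, where 6.08% and 5.3% of all genes compared were, with a median log2 ratio of -0.22 beside -0.13 over all genes. Slc30a4, which loads zinc into vesicles, was at 9.23 CPM at S3 and 4.197 CPM at D3, a log2 ratio of -1.14 (-1.84 to -0.44). In infiltrating over control brain macrophages 0 of 16 were past 2-fold higher and 3 lower, where 7.42% and 24.1% of all genes compared were, with a median of -0.18 beside -0.28. These were Mt3, the metallothionein best known from the brain (-4.001 (-5.11 to -3.01)), Slc30a4 (-2.59 (-3.48 to -1.72)) and the importer Slc39a10, at 5.92 beside 16.3 CPM (-1.46 (-1.85 to -1.07)). Against Ly6C high monocytes of brain D3, infiltrating macrophages had 2 of 16 past 2-fold higher and 0 lower, where 13.5% and 12.9% of all genes compared were. Slc39a8, an importer of zinc and manganese, was at 4.01 beside 0.463 CPM, a log2 ratio of 3.12 (1.53 to 5.42), and the importer Slc39a4 was at least 2.83-fold higher, with 33 UMIs over a floor of 3 UMIs for the monocytes, which held 0. In Lyve1+ macrophages of control mice 1 of 16 was past 2-fold higher in the brain than in the dura mater and 1 lower, the latter Slc30a4 (-1.62 (-3.31 to -0.29)), where 5.26% and 6.81% of all genes compared were. In Ly6C high monocytes of the brain 0 of 13 were past 2-fold higher at D3 and 0 lower, in mature neutrophils of the brain 0 and 1 of 14, and in dural Lyve1+ macrophages 0 and 1 of 16. Among all genes compared, 5.8% and 6.38%, 9.09% and 6.54%, and 3.29% and 3.82% were past 2-fold higher and lower in these 3 comparisons.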

How the data were processed

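CD45+ cells of 4 libraries were sequenced by the authors with the 10× Chromium 3′ v3 kit. The submitters' processing notes name Cell Ranger 3.1.0, Seurat 3.1.0 and mm10. Values were deposited by the authors as a natural log, ln(1 + x), where x scales each cell to a total of 10000, and they were turned back into UMIs, all of them whole within 1e-06, in place of the raw counts the design had assumed. Genes not listed for a library counted as 0. Any reads that matched both Mt1 and Mt2 could not be reassigned.

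Kept were cells of more than 1000 and fewer than 6000 genes whose mitochondrial share did not pass 7%, and the highest Scrublet scores (scanpy 1.11.5) were removed at 0.8% of cells for each 1000 barcodes, since the automatic threshold marked under 0.5% of cells. A cell joined the class whose marker score was highest, at least 0.25 and ahead of the next by 0.05. The Lyve1- macrophage panel shares genes with other myeloid classes. It competed only where no other panel reached 0.4 and where C1qa, C1qb and Ms4a7 averaged at least 0.25. The limit of 0.4 was chosen after seeing the data. The alternative classes came from Leiden clusters (leidenalg 0.10.2) named by the same markers, with the 5 genes left out of clustering. UMIs were summed by class and library. With 1 library for each condition, ratios have counting intervals (scipy 1.17.1) and no test, and a gene was called past 2-fold only where both groups summed to 10 UMIs or more. Classes below 20 cells in a library were left out of comparisons.

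The 5 genes and all lists were chosen with earlier results of these data known. Named besides them were the other zinc genes past 2-fold with at least 30 UMIs, and for each member the 5 genes most alike over classes of at least 50 cells, among genes with at least 1000 UMIs. The interval code was tested on simulated data. Alternatives were no cell filter, doublets kept, classes from clusters, equal weight for each cell, cells thinned to 2000 UMIs, scaling to the median ratio and a minimum of 100 UMIs. The precision of each level is set by its UMIs, from 37590286 to 72390201 in the kept cells of a library. Promoters came from RefSeq (GRCm38.p6), which matched 4 of the 5 genes, and positions from GENCODE vM21.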

Additional observations from a re-analysis of the deposited data

Results flagged for a closer look

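In immature neutrophils, which carry secondary granule genes such as Ltf and Camp, the metallothioneins lay on opposite sides of 0 in the 2 tissues after injury, with 1 library for each condition, and the difference between tissues was not tested. Mt1 was at 116 CPM in brain S3, 69.2 in brain D3, 43.1 in dura mater S3 and 108.1 in dura mater D3, with log2 ratios of -0.75 (-1.02 to -0.48) in the brain and 1.33 (1.13 to 1.53) in the dura mater. Mt2 gave -1.41 (-2.59 to -0.27) in the brain, from 12 UMIs over 18, and 2.17 (1.24 to 3.22) in the dura mater, from 49 over 12. The brain ratio of Mt1 took the direction of the dura mater without the filter on cells (0.72), with classes from clusters (3.58) and with cells thinned to 2000 UMIs (0.094), and that of Mt2 without the filter (1.38). In brain S3 the 5% of cells richest in Mt1 held 94.7% of its UMIs, 1 cell held 122 of the 225, and a Mt1 UMI was found in 12.3% of cells, beside 39.4% in brain D3.

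In cDC1, Mt2 also lay on opposite sides of 0, untested, with -4.16 (-9.603 to -1.35) in the brain, from 1 UMI over 10, and 2.94 (1.62 to 4.63) in the dura mater, from 50 UMIs over 5. These UMIs lay in 1 of 52 cells in brain D3, 2 of 25 in brain S3, 14 of 51 in dura mater D3 and 4 of 44 in dura mater S3, and 1 cell held 8 of the 10 of brain S3 and 1 cell 20 of the 50 of dura mater D3.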

How the results depend on the processing

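Of 423 log2 ratios recomputed under an alternative, 342 moved by no more than their counting interval, 73 moved further, and 8 whose interval had left out 0 changed sign. With those whose interval had held 0, such as Mt1 in microglia, 58 of the 423 changed sign. The causes were not tested. Without the filter on cells the ratio was 0.13 for Mt1, 0.68 for Mt2 and 2.51 for Slc39a14 in microglia, 0.084 for Mt1 and -1.31 for Mt2 in mature neutrophils of the brain, and 0.18 for Mt1 in infiltrating over control macrophages. With doublets kept Mt1 gave 0.062 in microglia. With classes from clusters Mt1 gave 0.56 and Mt2 1.27 in microglia, Mt1 1.06 and Slc39a14 0.94 in Ly6C high monocytes of the brain, Mt1 0.22 in mature neutrophils of the brain, Mt1 0.19 in infiltrating macrophages, Mt1 -0.028 and Mt2 0.58 in dural Lyve1+ macrophages, and Mt1 -0.84 in Lyve1+ macrophages of brain over dura mater. With each cell weighted equally Mt1 gave 1.28 in mature neutrophils and -0.85 in Lyve1+ macrophages of brain over dura mater, and Mt2 1.01 in infiltrating macrophages. With cells thinned to 2000 UMIs, Mt2 gave 0.54 in microglia, Mtf1 0.22 and Slc30a1 -0.21 in Ly6C high monocytes, Mt1 1.25 in mature neutrophils, Mt1 0.021 and Mtf1 -0.54 in infiltrating macrophages, Mt1 -0.18, Slc30a1 -0.77 and Slc39a14 -1.001 in dural Lyve1+ macrophages, and Mt1 -0.81 and Slc30a1 -2.597 in Lyve1+ macrophages of brain over dura mater. Scaled to the median ratio of genes with at least 100 UMIs, which was -0.12 in microglia, -0.14 in infiltrating macrophages, -0.15 in immature neutrophils of the dura mater and -0.17 in T cells of brain over dura mater, Mt1 gave 0.089 in microglia, 0.24 in infiltrating macrophages and -0.052 in dural Lyve1+ macrophages.

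The 8 changes of sign in ratios beyond counting error were Mtf1 in Ly6C high monocytes with thinned cells, 0.22, Mt2 in Lyve1- macrophages, -0.295 in the brain with classes from clusters and -0.084 in the dura mater with thinned cells, Slc39a14 in dural Lyve1- macrophages with thinned cells, -1.82, and the immature neutrophils of the brain, where Mt1 gave 0.72 without the filter, 3.58 with clusters and 0.094 thinned, and Mt2 1.38 without the filter. In dural Lyve1- macrophages Mt1 also gave 0.12 and Mt2 0.43 with clusters, and Mt1 0.19 and Slc30a1 1.09 thinned. Of 650 levels, 193 moved beyond their counting interval. With at least 100 UMIs in place of 10, the genes past 2-fold numbered 360 rather than 1374 in microglia, 431 rather than 1337 in Ly6C high monocytes, 349 rather than 1522 in mature neutrophils, 2051 rather than 3974 in infiltrating macrophages, 133 rather than 879 in dural Lyve1+ macrophages and 338 rather than 1364 in Lyve1+ macrophages of brain over dura mater. The genes compared fell by less, from 12068 to 8333 in microglia and from 12372 to 8504 in dural Lyve1+ macrophages. In these 2 comparisons a smaller share of genes was thus past 2-fold at the higher minimum. The shares of all genes given beside the members are those at the minimum of 10 UMIs. No paired analysis was possible because each condition has 1 library, which also leaves no replicate to leave out.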

Other observations

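Cells with endothelial markers, 20 in brain S3 and 23 in brain D3, which line vessels and are not leukocytes, were kept in the sorted libraries. Slc30a1 in them was at 217 CPM (157 to 294) at S3 and 223 CPM (158 to 307) at D3, with a UMI in 65.0% and 60.9% of cells. Mt2 was at 114 CPM (71.3 to 172) and 112 CPM (67.2 to 174), and Mt1 at 450.0 CPM (360.4 to 555) and 170.5 CPM (114 to 245), a log2 ratio of -1.400 (-2.06 to -0.78) from 87 and 29 UMIs. Of the 87, 1 cell held 37, and the share of cells with a Mt1 UMI was 60.0% at S3 and 60.9% at D3. These classes are small, and no value here was tested.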
